A study of Mus musculus with 2 samples.

Results

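Of the 19059 genes counted in nuclei of CIC::DUX4 sarcomas, 10 genes of the NRF2 antioxidant pathway were followed in every tumor and class of nuclei, chosen by symbol. They are Nfe2l2, which encodes the transcription factor NRF2, its inhibitor Keap1, and 8 genes of antioxidant and detoxifying enzymes or transporters: Gclc, Gclm, Slc7a11, Txnrd1, Srxn1, Nqo1, Hmox1 and Gsta4. All 10 symbols matched 1 feature each. Gsta4 was chosen because of its Minnelide contrast in macrophage-like nuclei of these same tumors, so that contrast is described here without a test in every class of nuclei. The other 9 were chosen by what they are known to do, but with earlier results of these data known.

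The nuclei came from sarcomas of the dFLEx CDS mouse, in which Cre and FLPE recombinases, delivered as plasmids to hind limb muscle, turn on a CIC::DUX4 fusion transgene under a CAG promoter. The untreated group held 4 tumors of genotype dFLEx CDS +/-. The other group held 4 tumors of dFLEx CDS mice given Minnelide, a water-soluble prodrug of the transcription inhibitor triptolide, at 0.42 mg/kg for 21 days. No genotype is given in the labels for the Minnelide group and no age for either, and by the study's methods the mice were young adults when the plasmids were delivered. The study picked Minnelide tumors of good and of poor response, which the labels do not tell apart, so each Minnelide mean and SD spans both. Stroma and immune cells of these tumors are the host's own. The question the 2 groups pose for these genes is whether an antioxidant program differs in tumors after the drug, and in which nuclei.

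NRF2 is held in the cytoplasm and sent for degradation by KEAP1, a sensor whose cysteines react with oxidants and electrophiles. When that hold is released, NRF2 enters the nucleus, pairs with a small MAF protein and binds antioxidant response elements (AREs) of genes that make glutathione, reduce thioredoxin and quinones, break down heme and conjugate reactive aldehydes. In macrophages the same set of genes is known for its part in handling heme and iron from engulfed red cells. Because much of NRF2's control is on the protein, the level of Nfe2l2 RNA is only 1 of its regulators.

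The DNA letters that NRF2 is known to read are shown first, to let the promoters of these genes be compared. The core of the ARE, TGACNNNGC, was searched on both strands in RefSeq promoters of build GRCm38.p6, from 250 bases before to 50 bases after each start site. Promoter entries matched 7 of the 10 genes, with 9 promoters in all, and 4 of these promoters held the core, against 4071 of all 32851 promoters (12.4%). The matches are printed 5′ to 3′ on the minus strand with 10 bases on each side, and the capitals mark the core.
Nfe2l2, chr2:75704885-75704913: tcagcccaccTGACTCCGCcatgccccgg
Srxn1, chr2:152105542-152105570: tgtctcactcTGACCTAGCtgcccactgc
Gclm, chr3:122245413-122245441: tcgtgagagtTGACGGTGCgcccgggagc
Txnrd1, chr10:82859104-82859132: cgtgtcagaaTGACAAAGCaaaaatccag
Counted in bases from the start site, the centre of the core lay at -236 in Nfe2l2, at -130 in Gclm, at -88 in 1 of the 3 Txnrd1 promoters, and at 32 in Srxn1. None of the 4 overlapped the AP-1 core TGANTCA. The promoters of Slc7a11, Nqo1 and Keap1 held no match in this window, and Gsta4, Hmox1 and Gclc were not searched. A match is a description of the letters and not of binding, and many known AREs lie further from the start site than this window reaches.

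After filtering, 59907 nuclei were retained, 30789 untreated and 29118 Minnelide, with 4470 to 10368 per tumor. The median unique molecular identifier (UMI) count per deposited nucleus ranged from 2329 to 4031 in 7 tumors, and untreated tumor 4 was shallower at 883. Clusters were named from marker genes and each name carries "-like": 40124 nuclei were tumor-like, 7000 myocyte-like, 6489 fibroblast-like, 3130 endothelial-like, 1444 macrophage-like, 851 pericyte-like and 696 osteoclast-like. The remaining 127 T/NK-like nuclei and 46 unnamed nuclei entered no class comparison. Untreated tumor 1 stood apart, with 284 of its 287 macrophage-like nuclei in a cluster of their own, and Minnelide tumor 2 was rich in myocyte-like nuclei (3489). In tumor-like clusters of 1582, 832 and 695 nuclei, nearly all from untreated tumor 1, all 9 endothelial markers were raised, beside myocyte markers. Clusters mainly of other tumors raised 8 or fewer. Untreated tumor 1 also had the lowest summed tumor markers in tumor-like nuclei (13023 CPM, against 14159 to 20782). The study describes endothelial-like features among its untreated tumors. Whether untreated tumor 1 is meant, and its part in the levels below, was not tested. Each untreated tumor shared 49 to 132 nucleus barcodes with the Minnelide tumor of the same number and 0 with every other tumor. Tumors of the same number also had the same bases at barcode positions 8 and 9 (CA, GT, TC or AG). The study's methods name on-chip multiplexing, and tumor numbers are file order, so the sharing does not show a pairing of animals. The labels give no sequencing runs, and run and treatment cannot be told apart. Levels are given as CPM, a gene's UMIs per 1000000 UMIs summed over a tumor's nuclei of 1 class, as mean ± SD over tumors. Nothing in the labels ties tumors to animals beyond the group, so a p-value measures the spread between these tumors.

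**Figure D1:**
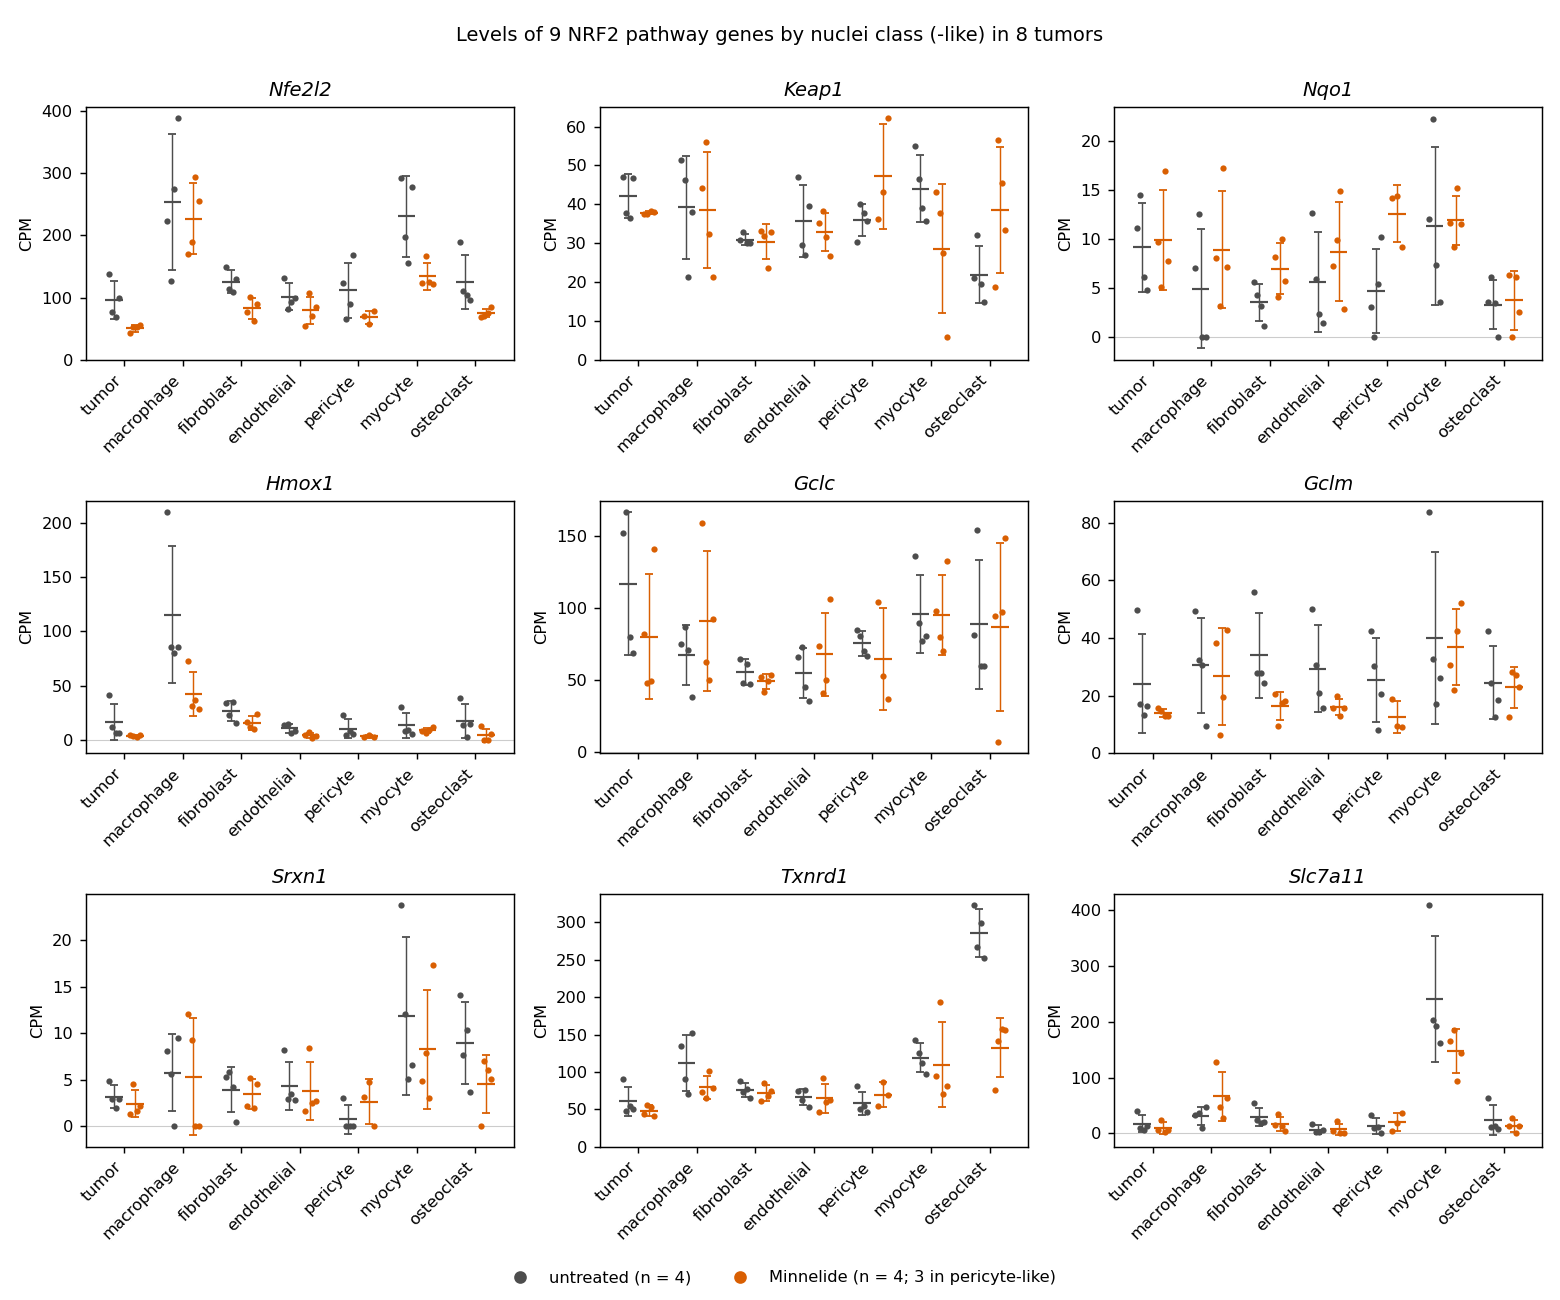
Level of 9 genes of the NRF2 pathway (CPM of summed UMIs, linear axes) in 7 classes of nuclei. Points are tumors, gray untreated (n = 4) and orange Minnelide (n = 4, but 3 for pericyte-like nuclei), with the mean as a bar and the SD as whiskers. Hmox1 stood highest in macrophage-like nuclei (78.7 CPM over 8 tumors), Slc7a11 in myocyte-like nuclei (194 CPM) and Txnrd1 in osteoclast-like nuclei (209 CPM).

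The regulator Nfe2l2 (ENSMUSG00000015839; GRCm39 chromosome 2, 75504739 to 75534985) was highest in macrophage-like nuclei, at 240 ± 82.0 CPM (SD, n = 8 tumors), and lowest in tumor-like nuclei, at 73.2 ± 31.6. Macrophage-like nuclei were above myocyte-like nuclei (182 ± 68.7) in 6 of 8 tumors, and myocyte-like above fibroblast-like nuclei (104 ± 28.2) in 8 of 8. Between fibroblast-, osteoclast-, pericyte- and endothelial-like nuclei the means ran from 104 to 90.3 CPM and were within 1 SD of each other. In tumor-like nuclei Nfe2l2 was 138, 76.9, 69.1 and 98.8 CPM in untreated tumors 1 to 4 and 42.6, 52.2, 53.0 and 55.3 CPM in Minnelide tumors 1 to 4. Every Minnelide tumor was below every untreated tumor. The means were 95.7 ± 30.9 and 50.8 ± 5.6 CPM (SD, n = 4 each), a 1.89-fold lower level, with a fitted log2 fold change of -0.76 (SE 0.19).

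That difference in Nfe2l2 did not pass correction over 13108 genes (edgeR adjusted p = 0.471), while DESeq2 put it just past the threshold (adjusted p = 0.0471). Without untreated tumor 1 the log2 fold change was -0.59. Marker genes of other cells moved with it in the tumor-like nuclei: 11 of 11 tested macrophage markers, 10 of 10 myocyte markers and 7 of 7 osteoclast markers had a lower fitted level in the Minnelide tumors, with no marker of these lists at 0 in a group. Their summed levels were 156 to 795 CPM untreated and 106 to 211 CPM Minnelide for macrophage markers, 1643 to 8020 and 438 to 5715 CPM for myocyte markers, and 204 to 1332 and 71.5 to 290 CPM for osteoclast markers. Endothelial markers were lower in 8 of 9 cases, fibroblast markers in 7 of 9 and pericyte markers in 3 of 8. The part of these lists in the result was not tested.

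In fibroblast-like nuclei Nfe2l2 was 150, 114, 108 and 130 CPM in the untreated tumors and 76.7, 101, 63.0 and 89.3 CPM in the Minnelide tumors, again with no overlap. The log2 fold change was -0.55 (SE 0.17, edgeR adjusted p = 0.798). In myocyte-like nuclei, where the untreated values were 293, 198, 155 and 277 CPM and the Minnelide values 123, 167, 125 and 121 CPM, only Minnelide tumor 2 reached into the untreated range (log2 fold change -0.83, SE 0.27, edgeR adjusted p = 0.428). Osteoclast-like nuclei had 190, 110, 105 and 96.7 CPM untreated and 69.1, 70.8, 75.7 and 84.4 CPM Minnelide, without overlap (log2 fold change -0.64, SE 0.24, edgeR adjusted p = 0.349). That last direction turned at a clustering resolution of 0.5, where the log2 fold change was 0.05. At that resolution no macrophage-like class could be tested, and 8302 genes in place of 5653 were tested in osteoclast-like nuclei. The class may therefore hold other nuclei there.

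Macrophage-like nuclei, where Nfe2l2 was highest, showed no such separation. Their values were 223, 127, 275 and 389 CPM untreated and 170, 190, 294 and 256 CPM Minnelide. The groups overlapped almost fully, and the log2 fold change was -0.08 (SE 0.31, edgeR adjusted p = 1.00). Over the 7 classes the Minnelide mean of Nfe2l2 was the lower one in 7, and the groups did not overlap in 3. The classes come from the same tumors, so counts over classes, here and below, are not separate results.

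Keap1 (ENSMUSG00000003308; chromosome 9, 21141026 to 21150679), the adaptor that hands NRF2 to a ubiquitin ligase, was the most even of the 10 genes across classes. Its class means ran from 30.2 to 40.8 CPM, and each class was above the next in only 4 or 5 tumors. In tumor-like nuclei it was 47.2, 37.9, 36.4 and 46.8 CPM untreated and 37.4, 37.5, 38.3 and 38.1 CPM Minnelide. The Minnelide tumors sat within 1 CPM of each other, inside the untreated range, and the log2 fold change was -0.02 (SE 0.12, edgeR adjusted p = 0.971). The groups overlapped in 7 of 7 classes, with fitted log2 fold changes between -0.48 in myocyte-like and 0.40 in pericyte-like nuclei.

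Glutathione is made in 2 steps, and the first is carried out by a pair of subunits. Gclc (ENSMUSG00000032350; chromosome 9, 77661797 to 77701770) encodes the catalytic subunit of glutamate-cysteine ligase. It was 98.5 ± 47.5 CPM in tumor-like and 95.4 ± 25.5 CPM in myocyte-like nuclei (SD, n = 8), which changed places in 4 of 8 tumors, and lowest in fibroblast-like nuclei at 52.0 ± 7.68 CPM. In tumor-like nuclei the tumors differed from each other more than the groups did, with 152, 167, 79.5 and 68.9 CPM untreated and 81.8, 48.1, 49.4 and 141 CPM Minnelide. The log2 fold change there was -0.39 (SE 0.42, edgeR adjusted p = 0.740). The groups overlapped in 7 of 7 classes, with log2 fold changes of -0.39 to 0.42.

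Gclm (ENSMUSG00000028124; chromosome 3, 122039126 to 122065061), the modifier subunit that makes the enzyme more efficient, was lower on average in the Minnelide tumors in 7 of 7 classes. The gap was small in macrophage- (30.4 against 26.6 CPM), myocyte- (39.9 against 36.7 CPM) and osteoclast-like nuclei (24.5 against 22.8 CPM). In fibroblast-like nuclei Gclm was 56.0, 27.9, 27.8 and 24.2 CPM untreated and 20.6, 9.30, 17.3 and 18.1 CPM Minnelide. The lowest untreated tumor was above the highest Minnelide tumor, and the means were 34.0 ± 14.8 and 16.3 ± 4.89 CPM (SD, n = 4 each). The log2 fold change was -0.99 (SE 0.31, edgeR adjusted p = 0.798) and -0.70 without untreated tumor 1. Beside it in these nuclei, 10 of 10 myocyte markers had a lower fitted level in the Minnelide tumors (sum 1704 to 9292 against 306 to 5154 CPM) and 8 of 8 tumor markers a higher one (1995 to 5286 against 5068 to 10325 CPM), none of them at 0. Their part was not tested.

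In endothelial-like nuclei Gclm was 49.9, 30.6, 21.0 and 15.5 CPM untreated and 15.8, 19.8, 12.8 and 15.7 CPM Minnelide. Untreated tumor 4 lay inside the Minnelide range, and the log2 fold change of -0.85 (SE 0.33, edgeR adjusted p = 0.439) became -0.49 without untreated tumor 1 and -0.29 with no filter on mitochondrial reads. In tumor-like nuclei a single tumor carried the difference, with 49.7 CPM in untreated tumor 1 against 13.3 to 17.1 CPM in the other untreated tumors and 12.8 to 15.6 CPM in the Minnelide tumors.

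Slc7a11 (ENSMUSG00000027737; chromosome 3, 49846975 to 50398070) encodes the cystine importer xCT, which feeds glutathione synthesis. It was a gene of myocyte-like nuclei here, at 194 ± 92.8 CPM (SD, n = 8), and the highest class in 8 of 8 tumors, with macrophage-like nuclei next at 49.2 ± 35.9 CPM and endothelial-like nuclei lowest at 7.24 ± 8.26 CPM. In myocyte-like nuclei the values were 408, 203, 192 and 162 CPM untreated and 166, 184, 94.2 and 144 CPM Minnelide. Untreated tumor 1 stood far above the rest, the other tumors overlapped, and the log2 fold change of -0.73 (SE 0.31, edgeR adjusted p = 0.447) was -0.40 without that tumor. In the same nuclei 9 of 10 myocyte markers had a lower fitted level in the Minnelide tumors (sum 57698 to 74214 against 29278 to 44319 CPM), none at 0, and their part in the result was not tested.

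In macrophage-like nuclei Slc7a11 was 33.3, 36.4, 9.41 and 47.5 CPM untreated and 129, 46.6, 28.1 and 64.0 CPM Minnelide. The highest value, in Minnelide tumor 1, came largely from 1 nucleus. That nucleus held 79 Slc7a11 UMIs and 87 Gclc UMIs among its 5688, with 10 UMIs of Gclm, 10 of the peroxiredoxin gene Prdx1, 6 of Txnrd1, 5 of Hmox1, 4 of Srxn1, and 0 of Gsta4 and Keap1. It also held 64 UMIs of Ecpas, a proteasome adaptor gene. Without it Minnelide tumor 1 had 49.6 CPM of Slc7a11 and 71.8 CPM of Gclc in place of 159 CPM. The log2 fold change of Slc7a11 then went from 1.26 (SE 0.54, edgeR adjusted p = 1.00) to 0.63 (0.57 without Minnelide tumor 1 altogether), and the Minnelide mean from 66.8 ± 43.8 to 47.1 ± 14.8 CPM (SD, n = 4).

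Txnrd1 (ENSMUSG00000020250; chromosome 10, 82669785 to 82733546), which encodes the cytosolic thioredoxin reductase, had its highest mean in osteoclast-like nuclei at 209 ± 88.4 CPM (SD, n = 8). It was above the next class, myocyte-like nuclei at 114 ± 39.5 CPM, in 6 of 8 tumors, and tumor-like nuclei were lowest at 54.4 ± 15.2 CPM. The osteoclast-like nuclei had 324, 267, 300 and 253 CPM untreated and 75.3, 142, 158 and 156 CPM Minnelide. These are 68 to 261 Txnrd1 UMIs per untreated and 12 to 61 per Minnelide tumor. The highest Minnelide tumor was far below the lowest untreated one, the means were 286 ± 32.1 and 133 ± 38.9 CPM (SD, n = 4 each), and the level was 2.16-fold lower.

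The log2 fold change of Txnrd1 in osteoclast-like nuclei was -1.02 (SE 0.23), and it ranged from -1.12 to -0.84 as each tumor was left out in turn. edgeR gave an adjusted p of 0.331 over 5653 genes and DESeq2 one of 0.0405. With every nucleus thinned to 1000 UMIs, 22.4% of the untreated and 8.68% of the Minnelide osteoclast-like nuclei held a Txnrd1 UMI (58.5% and 35.6% unthinned), against 6.15% and 5.24% of tumor-like nuclei (17.8% and 17.1% unthinned). Thinning left out 18 shallower untreated and 2 Minnelide osteoclast-like nuclei, and 7573 and 250 tumor-like nuclei. The class had 55 to 218 nuclei per untreated and 33 to 84 per Minnelide tumor. Its own markers, the osteoclast genes Acp5, Ctsk, Mmp9, Atp6v0d2, Dcstamp, Ocstamp and Oscar, had lower fitted levels in the Minnelide tumors in 7 of 7 cases (sum 7214 to 14210 against 4392 to 8131 CPM), and tumor markers had higher ones in 8 of 8 (1810 to 5452 against 4413 to 11212 CPM), none at 0 in a group. Their part was not tested.

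Outside that class Txnrd1 did not separate the groups. In macrophage-like nuclei it was 134, 90.9, 70.6 and 152 CPM untreated and 73.4, 65.2, 101 and 78.2 CPM Minnelide (log2 fold change -0.41, SE 0.28, edgeR adjusted p = 1.00). In fibroblast- and endothelial-like nuclei the log2 fold changes were -0.02 (SE 0.15) and -0.01 (SE 0.22). The annotation places Eid3 within the bounds of Txnrd1, and reads of the pair may not be told apart where the counting did not use strand.

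Srxn1 (ENSMUSG00000032802; chromosome 2, 151947436 to 151957687), whose product repairs overoxidized peroxiredoxins, was scarce, with class means of 1.57 to 10.1 CPM. It was highest in myocyte-like nuclei, at 23.7, 12, 5.09 and 6.56 CPM untreated and 4.86, 7.86, 3.04 and 17.3 CPM Minnelide. The groups overlapped there and in each of the 7 classes, and the log2 fold change in myocyte-like nuclei was -0.81 (SE 0.57, edgeR adjusted p = 0.621).

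Nqo1 (ENSMUSG00000003849; chromosome 8, 108113835 to 108129934), the quinone reductase often used as a readout of NRF2 activity, was also low, with class means of 3.50 to 11.6 CPM. Unlike the other 8 tested genes, its mean was the higher one in the Minnelide tumors in 7 of 7 classes, yet the groups overlapped in all 7. Of the 3 classes where it had enough counts to be tested, the widest gap was in fibroblast-like nuclei, with 5.55, 4.22, 3.17 and 1.03 CPM untreated and 8.16, 4.04, 10.0 and 5.65 CPM Minnelide. Minnelide tumor 2 lay inside the untreated range, and the log2 fold change was 1.04 (SE 0.44, edgeR adjusted p = 0.798). In tumor-like nuclei the log2 fold change was 0.27 (SE 0.45, edgeR adjusted p = 0.841).

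Hmox1 (ENSMUSG00000005413; chromosome 8, 75820241 to 75827217) encodes heme oxygenase 1, which splits heme into biliverdin, iron and carbon monoxide. Macrophage-like nuclei had the highest level in 8 of 8 tumors, at 78.7 ± 58.4 CPM (SD, n = 8), followed by fibroblast-like nuclei at 21.3 ± 9.56 CPM, which were above myocyte-like nuclei (11.2 ± 8.03 CPM) in 8 of 8. In macrophage-like nuclei Hmox1 was 210, 85.3, 80.0 and 85.5 CPM untreated and 72.4, 31.1, 36.7 and 28.4 CPM Minnelide. Every untreated tumor was above every Minnelide tumor, and the means were 115 ± 63.2 and 42.2 ± 20.5 CPM (SD, n = 4 each), 2.73-fold apart. The counts were small in places: 208, 61, 34 and 9 UMIs untreated and 72, 10, 17 and 4 Minnelide.

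The log2 fold change of Hmox1 in macrophage-like nuclei was -1.34 (SE 0.42, edgeR adjusted p = 1.00). It moved to -0.81 without untreated tumor 1, to -1.82 without Minnelide tumor 1, and to -0.49 with no filter on mitochondrial reads, where untreated tumor 4 no longer had enough macrophage-like nuclei. Of the 11 macrophage markers tested in these nuclei, 10 had a lower fitted level in the Minnelide tumors, with a median log2 fold change of -0.54, summed levels of 2205 to 5682 CPM untreated and 1909 to 3348 CPM Minnelide, and none at 0. Markers of some other cells were lower there too, with 4 of 4 tested osteoclast markers (median -1.41, sum 237 to 1903 CPM untreated and 137 to 604 CPM Minnelide) and 9 of 9 myocyte markers (median -0.99, sum 2461 to 11717 and 417 to 8400 CPM), none at 0. Tumor markers were higher in 8 of 8 cases (median 0.42, sum 2704 to 10167 and 6582 to 14419 CPM). Fibroblast markers were lower in 5 of 6 cases, endothelial markers in 3 of 6 and pericyte markers in 2 of 4. The part of these lists was not tested.

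In tumor-like nuclei Hmox1 was far lower, at 41.7, 12, 6.15 and 6.58 CPM untreated and 4.38, 3.60, 3.13 and 4.56 CPM Minnelide, and the groups again did not overlap. Untreated tumor 1 stood highest: the log2 fold change was -1.87 (SE 0.57, edgeR adjusted p = 0.471) with it and -0.98 without it. The macrophage markers within the tumor-like nuclei, given above, were lower too. Fibroblast-like nuclei had 34.1, 22.7, 35.2 and 16.0 CPM untreated and 16.9, 11.7, 9.66 and 23.7 CPM Minnelide, an overlap set by Minnelide tumor 4 (log2 fold change -0.81, SE 0.33, edgeR adjusted p = 0.798). Over all retained nuclei the log2 fold change was -1.60 (SE 0.44), with an edgeR adjusted p of 0.464 and a DESeq2 adjusted p of 0.0470. In such a sum a change in the share of a class and a change per nucleus cannot be told apart. The Minnelide mean of Hmox1 was the lower one in 7 of 7 classes.

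**Figure D2:**
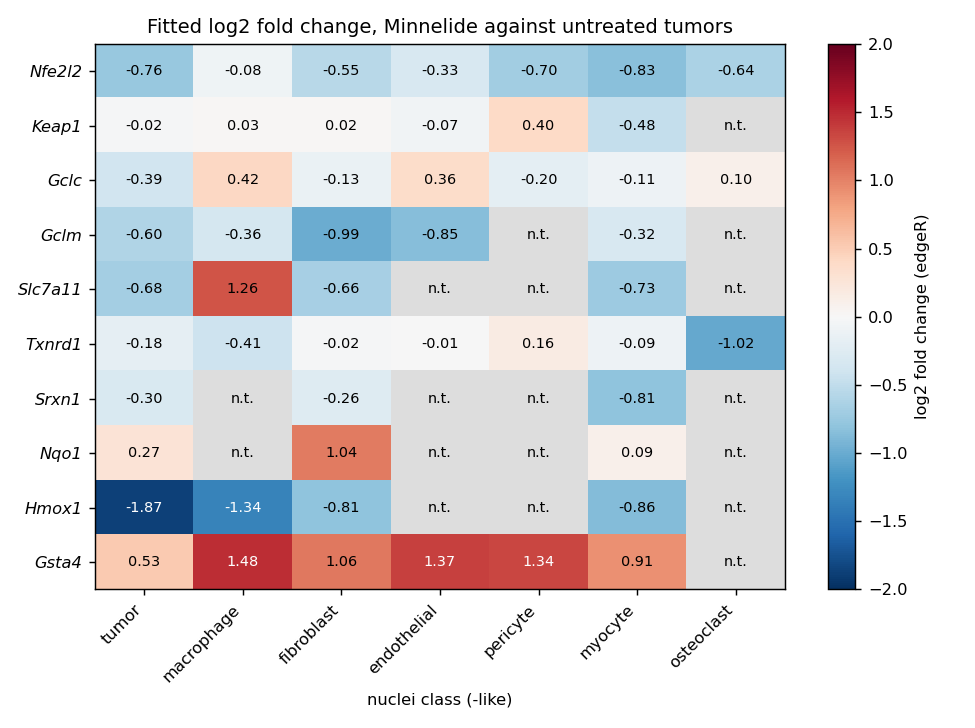
Fitted log2 fold change (edgeR, Minnelide against untreated tumors) of the 10 genes in 7 classes of nuclei, blue for lower and red for higher in Minnelide, with the value in each cell. Cells marked n.t. held too few counts to be tested. Hmox1 and Nfe2l2 were blue in each class where they were tested and Gsta4 was red, and no adjusted p of the other 9 genes was under 0.05 in edgeR.

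Set side by side, the 9 genes other than Gsta4 held 2 whose groups did not overlap and were lower in Minnelide in tumor-like nuclei (Nfe2l2 and Hmox1), where 6.4% of all tested genes did so. In macrophage-like nuclei it was 1 of 9 (Hmox1) against 1.23% of tested genes, in fibroblast-like nuclei 2 of 9 (Nfe2l2 and Gclm) against 3.01%, and in osteoclast-like nuclei 2 of 9 (Nfe2l2 and Txnrd1) against 4.35%. In pericyte-like nuclei it was Hmox1, which had too few counts to be tested there, against 3.39%, and in endothelial- and myocyte-like nuclei it was 0, against 3.36% and 2.17%. None of the 9 was higher in Minnelide without overlap in any class. Of all tested genes, 1.06% were so in tumor-like, 1.13% in macrophage-like, 1.55% in fibroblast-like, 2.65% in endothelial-like, 3.18% in pericyte-like, 5.2% in myocyte-like and 2.99% in osteoclast-like nuclei. Of the genes lower without overlap, only Txnrd1 stayed apart in the share of nuclei with a UMI after thinning. It had 19.5% to 27.3% untreated and 6.02% to 11.5% Minnelide in osteoclast-like nuclei. The groups overlapped for Nfe2l2 in tumor-like (5.63% to 12.4%, 4.29% to 5.72%) and Hmox1 in macrophage-like nuclei (3.43% to 13.4%, 1.33% to 5.04%). They also did for Nfe2l2 in fibroblast- and osteoclast-like, Hmox1 in tumor- and pericyte-like and Gclm in fibroblast-like nuclei.

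By edgeR's quasi-likelihood test with Benjamini-Hochberg adjustment, 0 genes of any kind passed an adjusted p under 0.05 in any class, so percent called was 0 throughout. The tests covered 13108 genes in tumor-like, 7147 in macrophage-like, 11393 in fibroblast-like, 9504 in endothelial-like, 6612 in pericyte-like, 10497 in myocyte-like and 5653 in osteoclast-like nuclei. At an unadjusted p under 0.05 there were 1356, 272, 704, 1073, 394, 1137 and 704 genes in that order, and DESeq2 called 119, 0, 31, 17, 0, 39 and 18. As shares of the genes tested, the DESeq2 calls were 0.908% in tumor-like, 0.272% in fibroblast-like, 0.179% in endothelial-like, 0.372% in myocyte-like and 0.318% in osteoclast-like nuclei, and 1.31% where all retained nuclei were summed. Counts sufficed to test all 9 genes in tumor-, fibroblast- and myocyte-like nuclei, 7 in macrophage-like, 5 in endothelial-like, 4 in pericyte-like and 3 in osteoclast-like nuclei. Among them, 2 were under an unadjusted 0.05 in tumor-like nuclei (10.3% of all tested genes), 2 in macrophage-like (3.81%), 4 in fibroblast-like (6.18%), 1 in endothelial-like (11.3%), 0 in pericyte-like (5.96%), 2 in myocyte-like (10.8%) and 2 in osteoclast-like nuclei (12.5%). In tumor-like nuclei 8 of the 9 had a negative and 1 a positive log2 fold change, with a median of -0.39 against -0.01 over all tested genes. The corresponding counts were 8 and 1 in myocyte-like nuclei (median -0.48 against -0.05 over all genes) and 7 and 2 in fibroblast-like nuclei (-0.26 against -0.002). In macrophage-like nuclei 7 of the 9 had enough counts, 4 negative and 3 positive, with a median of -0.08 against -0.002.

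Whether the group difference itself was another one in macrophage-like than in tumor-like nuclei was tested for each of the 9 genes on log2(CPM + 10), by a two-sided exact permutation test over the 8 tumors. The smallest p that this design allows is 0.0286, which for 1 gene alone becomes 0.257 after adjustment over 9 comparisons, so the test could not single out a gene. Gclc came nearest, with macrophage-like over tumor-like levels of -0.67 ± 0.36 untreated and 0.16 ± 0.60 Minnelide on the log2 scale (SD, n = 4 each; difference 0.83, exact permutation p = 0.0571, adjusted p = 0.321 over 9 comparisons). Without the 1 nucleus of Minnelide tumor 1 rich in Gclc, the Minnelide value was -0.10 ± 0.36 and the difference 0.57 (exact permutation p = 0.0857). The others had exact permutation p-values of 0.0857 or more.

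Gsta4 (ENSMUSG00000032348; chromosome 9, 78090056 to 78117763) encodes a glutathione transferase that conjugates 4-hydroxynonenal, an aldehyde from oxidized lipids. As a level, it was a gene of the tumor-like nuclei, which had the highest Gsta4 in 8 of 8 tumors at 45 ± 10.9 CPM (SD, n = 8). Macrophage-like nuclei followed at 26.0 ± 13.7 CPM, then pericyte-like (24.9 ± 14.8), endothelial-like (22.2 ± 12.7), myocyte-like (21.7 ± 8.77) and fibroblast-like nuclei (18.7 ± 7.89), whose neighbors in this order changed places in at least 2 tumors each. Osteoclast-like nuclei were lowest at 11.9 ± 9.44 CPM. Untreated tumor 1, at 24.3 CPM, had the lowest Gsta4 of any tumor in its tumor-like nuclei.

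**Figure D3:**
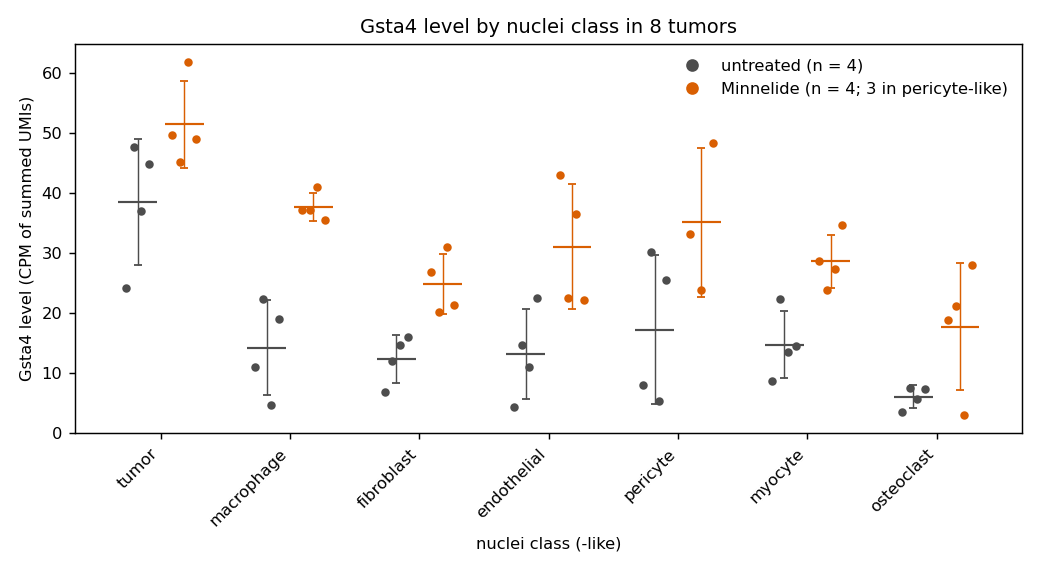
Gsta4 level (CPM of summed UMIs, linear axis from 0) by class of nuclei. Points are tumors, gray untreated (n = 4) and orange Minnelide (n = 4, but 3 for pericyte-like nuclei), with the mean as a bar and the SD as whiskers. The Minnelide mean was the higher one in 7 of 7 classes, with groups that did not overlap in macrophage-, fibroblast- and myocyte-like nuclei.

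In macrophage-like nuclei, the contrast for which it was chosen, Gsta4 was 11.1, 22.4, 4.71 and 19 CPM untreated and 37.2, 37.3, 41.0 and 35.5 CPM Minnelide. These levels rest on 11, 16, 2 and 2 UMIs untreated and on 37, 12, 19 and 5 UMIs Minnelide. The Minnelide tumors lay within 6 CPM of each other and above every untreated tumor, with means of 37.8 ± 2.31 and 14.3 ± 7.95 CPM (SD, n = 4 each) and a fitted log2 fold change of 1.48 (SE 0.41). As each tumor was left out in turn it ranged from 1.18 (without untreated tumor 3) to 1.97 (without untreated tumor 2). Among tested genes of macrophage-like nuclei, 1.13% were higher without overlap.

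The same order of the groups was seen outside macrophage-like nuclei. Fibroblast-like nuclei had 6.87, 12, 14.8 and 16.0 CPM untreated and 26.9, 20.2, 31.0 and 21.5 CPM Minnelide (log2 fold change 1.06, SE 0.31), where 1.55% of tested genes were higher without overlap. Myocyte-like nuclei had 8.72, 22.3, 13.6 and 14.6 CPM untreated and 28.7, 23.9, 27.3 and 34.7 CPM Minnelide (log2 fold change 0.91, SE 0.34), against 5.2% of genes. In both classes every Minnelide tumor was above every untreated one. For the thinned share of nuclei with a UMI, this held in fibroblast-like nuclei (0.572% to 1.94% untreated, 2.17% to 3.18% Minnelide). In myocyte-like nuclei the thinned shares overlapped (1.10% to 2.47%, 1.47% to 4.08%).

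Endothelial-like nuclei had 4.47, 14.8, 11.1 and 22.5 CPM untreated and 43.1, 22.6, 36.5 and 22.2 CPM Minnelide, so that untreated tumor 4 and Minnelide tumors 2 and 4 were level (log2 fold change 1.37, SE 0.46). Pericyte-like nuclei had 8.08, 30.1, 5.39 and 25.5 CPM untreated and 33.2, 23.9 and 48.4 CPM in Minnelide tumors 1 to 3 (log2 fold change 1.34, SE 0.58), and Minnelide tumor 4 had only 11 nuclei of this class and was left out. In tumor-like nuclei themselves the values were 24.3, 47.7, 37.1 and 44.9 CPM untreated and 49.8, 45.2, 61.9 and 49.0 CPM Minnelide. There the means were 38.5 ± 10.5 and 51.5 ± 7.24 CPM, the groups overlapped at untreated tumor 2, and the log2 fold change was 0.53 (SE 0.26), or 0.34 without untreated tumor 1.

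Tumor markers, which are 8 CIC::DUX4 targets (the ETS genes Etv1, Etv4 and Etv5, the adaptor genes Shc3 and Shc4, the feedback inhibitor genes Dusp4 and Spred2, and Vgf), moved with Gsta4 in these classes. Of the 8, 8 had a higher fitted level in the Minnelide tumors in each of the 6 classes other than tumor-like nuclei, and none was at 0 in a group. In macrophage-like nuclei their summed level was 20.8%, 58.9%, 35.2% and 53.8% of that in the tumor-like nuclei of the same tumor in untreated tumors 1 to 4, and 69.4%, 56.8%, 58.0% and 42.4% in Minnelide tumors 1 to 4. Gsta4 on the same scale was 45.7%, 46.9%, 12.7% and 42.3% untreated and 74.8%, 82.4%, 66.2% and 72.5% Minnelide. The Gsta4 values of these nuclei are those it was chosen by, and the part of tumor RNA in them was not tested.

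In fibroblast-like nuclei the tumor markers were at 15.3% to 34.4% of the tumor-like level untreated and 32.7% to 49.7% Minnelide, and Gsta4 at 25.2% to 39.9% and 43.8% to 54.1%. In myocyte-like nuclei the markers were at 19.1% to 30.2% and 38.6% to 55.6%, and Gsta4 at 32.6% to 46.8% and 44.1% to 70.7%. In endothelial-like nuclei the markers were at 19.3% to 44.2% and 43.0% to 83.7%, and Gsta4 at 18.4% to 50.2% and 45.2% to 86.6%. Minnelide tumor 1 was highest there for the markers and for Gsta4. Endothelial markers in that class summed to 6106 to 7927 CPM untreated and 1561 to 7432 CPM Minnelide. Tumor markers and Gsta4 were both higher on average in the Minnelide tumors, and the part of tumor RNA in the Gsta4 levels of these classes was not tested.

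**Figure D4:**
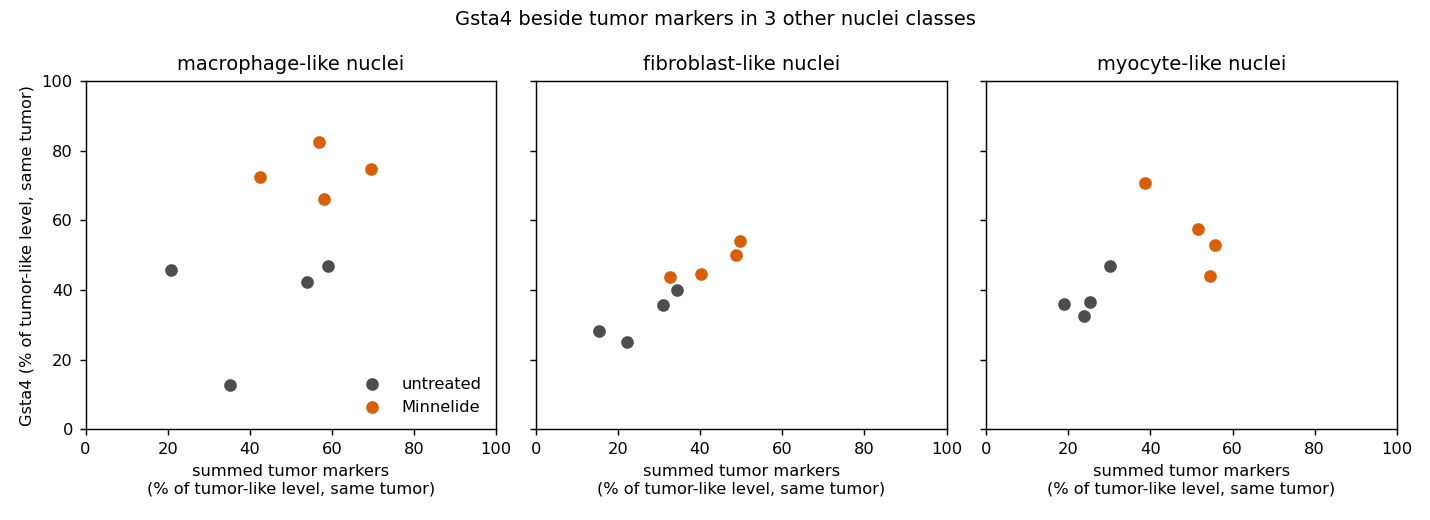
Gsta4 level (vertical axis) against the summed level of 8 tumor markers (horizontal axis) in macrophage-, fibroblast- and myocyte-like nuclei, both as percent of the level in tumor-like nuclei of the same tumor. Each point is a tumor, gray untreated and orange Minnelide. In macrophage-like nuclei, the class by which Gsta4 was chosen, it ran from 12.7% to 46.9% untreated and from 66.2% to 82.4% Minnelide, and the markers from 20.8% to 58.9% and from 42.4% to 69.4%.

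A narrower set of macrophage-like nuclei, the 3 of 7 clusters in which fewer than 3 tumor markers were raised, was examined after the levels were known. Those nuclei still held tumor markers at 17.3%, 28.4% and 27.3% of the tumor-like level in untreated tumors 1 to 3 and at 50.5%, 45.3% and 53.7% in Minnelide tumors 1 to 3. Gsta4 had 9, 1 and 0 UMIs in these untreated tumors and 11, 1 and 10 in the Minnelide tumors. In CPM that was 9.36, 6.14 and 0 untreated, where 3 UMIs would be 12.6 CPM in untreated tumor 3, and 44.4, 17.3 and 37.7 Minnelide. Tumor 4 of each group had under 20 such nuclei. Minnelide tumor 1 and 3 were above the untreated tumors, Minnelide tumor 2 rests on 1 UMI, and the gene had too few counts to be fitted. Hmox1 could be fitted there, with a log2 fold change of -1.20 (n = 3 each, edgeR adjusted p = 0.566) against -1.34 in all macrophage-like nuclei. Its values in that set were 215, 203 and 105 CPM untreated and 121, 51.9 and 45.2 CPM Minnelide. The groups overlapped, as Minnelide tumor 1 was above untreated tumor 3, and Minnelide tumor 2 had only 3 Hmox1 UMIs.

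Other genes, around NRF2 and of macrophage states, were read from lists by function, of which none passed edgeR's adjusted threshold in any class. In tumor-like nuclei 123 entries of 11 lists were tested, where a gene in 2 lists counts in each. At an unadjusted p under 0.05 in edgeR, 4 were higher and 19 lower, beside 330 higher and 1026 lower of all 13108 genes (10.3% in both directions). Of the 19, 2 were in the monocyte and 2 in the interferon list. Of the 11 tested genes of glutathione synthesis and use, 10 had a negative and 1 a positive log2 fold change (median -0.52), from 0.02 for the synthetase gene Gss to -2.05 for the glutaredoxin gene Glrx (5.69 ± 6.45 against 1.17 ± 0.41 CPM). The 12 heme and iron genes were 10 negative and 2 positive (median -0.62), from 0.17 for the biliverdin reductase gene Blvra to -2.26 for the ferroxidase gene Cp.

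The 14 thioredoxin system genes in tumor-like nuclei were 8 negative and 6 positive (median -0.18), from 0.58 for the peroxiredoxin gene Prdx4 to -2.32 for Txnip, whose product binds thioredoxin. NADPH and carbonyl reduction genes were 14 negative and 5 positive of 19 (median -0.15), from 0.23 for Tkt to -2.42 for Aldh1a1, a retinaldehyde dehydrogenase gene. The glutathione transferases and conjugation genes were 10 negative and 8 positive of 18 (median -0.05), from 0.82 for Gstm5 to -1.66 for Mgst3. The genes that control NRF2 were split 6 and 6 (median 0.03), from 0.36 for the repressor Bach2 to -0.69 for Sqstm1, which encodes a KEAP1-binding autophagy receptor. The ATF4 targets, a stress list that shares Slc7a11 with NRF2 in the textbook account, were split 7 and 7 (median -0.06), from 0.75 for Vldlr to -2.0 for Trib3.

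Several of these genes had wide untreated ranges. Txnip was 18.9 to 303 CPM in the untreated tumors and 12.3 to 26.5 CPM in the Minnelide tumors, and Aldh1a1 3.20 to 61.2 and 0.937 to 8.52 CPM. Their edgeR adjusted p-values were both 0.471, with overlapping groups.

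In macrophage-like nuclei 66 entries of the 11 lists were tested, with 0 higher and 5 lower at an unadjusted p under 0.05, beside 141 higher and 131 lower of all 7147 genes (3.81% in both directions). The list of glutathione transferases and conjugation genes, without Gsta4, also holds transporter genes, and 6 of its 22 counted genes were tested. Those 6 were negative (median -0.22), from -0.11 for Gstz1 to -0.39 for the transporter gene Abcc5. The other genes of that list had too few counts to be tested in these nuclei. Glutathione synthesis and use genes were 3 negative and 1 positive (median -0.76), from 0.11 for Slc3a2, the partner of Slc7a11, to -0.89 for the glutathione reductase gene Gsr. The heme and iron genes were 8 negative and 2 positive (median -0.48), from 0.62 for Blvra to -1.89 for the iron exporter gene Slc40a1, which ranged from 4.71 to 408 CPM among untreated tumors.

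The other lists of macrophage-like nuclei were mixed. Thioredoxin system genes were 6 negative and 3 positive (median -0.17), from 0.81 for Sesn3 to -1.52 for Txnip. NADPH and carbonyl reduction genes were 5 and 4 (median -0.33), from 0.44 for Tkt to -0.74 for Idh1. NRF2 control genes were 5 and 6 (median 0.02), from 0.30 for Btrc to -0.71 for Sqstm1, and ATF4 targets 2 and 2 (median 0.04), from 0.65 for Vldlr to -0.19 for Atf3. Among genes of macrophage states, resident genes were 4 negative of 4 (median -0.28), from -0.18 for Cd163 to -0.64 for F13a1, lipid-associated genes 5 negative and 1 positive, from 0.16 for Fabp5 to -0.89 for Lpl, and monocyte genes 2 positive of 2, Ccr2 at 0.65 and Fn1 at 0.50.

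In tumor-like nuclei the macrophage state genes were 6 negative and 1 positive of 7 resident genes (median -0.93; Timd4 0.02, Cd163 -2.50), 7 negative of 7 lipid-associated genes (median -0.48; Fabp5 -0.25, Spp1 -1.04), 3 negative and 1 positive of 4 monocyte genes (median -0.98; Fn1 0.26), and 5 negative of 5 interferon genes (median -1.07; Isg15 -0.30, Ifit3 -1.44). Not all of these genes were particular to immune cells here: Fn1 was at 945 CPM untreated and 1195 CPM Minnelide in pericyte-like nuclei, against 574 and 776 CPM in macrophage-like nuclei, and Spp1 was at 762 CPM in untreated fibroblast-like nuclei.

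The genes whose pattern was most like each of the 10 were ranked by Pearson's r of log2(CPM + 10) over 56 sums of tumor by class, among 11837 genes. These sums share tumors, depth and class, so r is a description. Gsta4 was most like the basement membrane genes Col4a5 (r = 0.80) and Col4a6 (0.79), Ptges3l (0.80), the cyclin gene Ccnd2 (0.79) and Cox6b2 (0.78). None of the 5 is among the genes studied here, and the r of Gsta4 with the other 9 ran from -0.57 (Txnrd1) to 0.39 (Nqo1).

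Hmox1 was most like P2rx4 (0.85) and Cacna1d (0.83), Nfe2l2 like the amino acid transporter gene Slc7a8 (0.82) and Osbpl9 (0.80), and Slc7a11 like Ecpas and Pstpip2 (0.85 each). For Txnrd1 they were Resf1 (0.86) and Nudt13 (0.85), for Gclm Syngr2 (0.76) and Ddx5 (0.75), and for Srxn1 Ubxn4 (0.74) and Mknk2 (0.72). Keap1 (Maip1 0.67, Fkbp4 0.53), Nqo1 (Slc38a2 0.65, Spata24 0.61) and Gclc (Cyhr1 and Wdr77, 0.63 each) had no gene with r above 0.67. Within the 10, Nfe2l2 and Hmox1 had the highest r, 0.66, followed by Nfe2l2 and Slc7a11 at 0.61, while Nfe2l2 and Keap1 stood at 0.01.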

How the data were processed

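Tumor nuclei were counted by single-nucleus RNA sequencing with a 10x 3′ kit. The authors deposited raw UMI counts per gene and nucleus, made with bcl2fastq 2.20 and Cell Ranger 7.0.1 on mm39 per the submitters' processing notes; the file headers name Cell Ranger 9.0.1. Which annotation or probe set was counted is not given in the sources used here. Each group was deposited as 1 sample with 4 matrices, each taken as a tumor, numbered in file order as a name only.

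In each tumor, a mixture of regressions of mitochondrial percent on detected genes split intact from compromised nuclei, and those with a posterior probability of 0.75 or more of being compromised, or with under 200 genes, were dropped. The top Scrublet scores were dropped as doublets, at 0.8% per 1000 nuclei. Nuclei of all tumors were clustered (scanpy 1.11.5, 2000 variable genes, leaving out the 10 genes, the markers and the lists, 30 components, 40 neighbors, resolution 1.0). A marker was raised at 1.5-fold over a low cluster of the same tumor, after adding 20 CPM, with detection in 5% of nuclei, and 3 raised markers were required for a name. This rule was set after clusters had been seen, with several versions tried.

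UMIs were summed per tumor and class with at least 20 nuclei and tested with edgeR 4.0.16 (TMM, filterByExpr, quasi-likelihood, R 4.3.3), adjusted over all genes; DESeq2 1.42.0 was the alternative. The test was checked on simulated data. The genes named were all 10, and from each list the gene with the largest and the smallest log2 fold change. A few results of these lists are not reported here. The 10 genes, the lists and the tests were chosen with earlier results of these data known. The exact permutation test, the osteoclast-like fit, the removal of 1 nucleus and the narrower macrophage-like set were added after values were seen. Alternatives were the normalization, no filter, doublets kept, no mitochondrial filter, resolution 0.5 and leaving out each tumor. No comparison by response to the drug was made, since the labels do not give it per tumor.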

Additional observations from a re-analysis of the deposited data

Results flagged for a closer look

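In groups of 4 tumors, a value was singled out where its gap to the nearest other tumor took up more of the group's range than Dixon's 95% limit allows. Of 150 groups 22 were singled out, and chance alone gives about 1 in 20. The groups share the same tumors, and those of all retained nuclei contain the classes. They are not 150 separate draws, so the excess cannot be weighed by that rate. Untreated tumor 1 accounted for 13, each time as the highest tumor, Minnelide tumor 2 for 8, also as the highest, and Minnelide tumor 3 for 1.

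Untreated tumor 1 was high for Gclm in all retained nuclei (53.7 CPM, against 17.5 to 20.7 in the other untreated tumors), in fibroblast-like nuclei (56.0) and in tumor-like nuclei (49.7). It was high for Hmox1 in macrophage-like (210 CPM, against 80.0 to 85.5), tumor-like (41.7), myocyte-like (30.6) and pericyte-like nuclei (23.2). The same tumor stood out for Slc7a11 in myocyte-like (408 CPM, against 162 to 203), osteoclast-like (63.4) and fibroblast-like nuclei (54.4), for Nfe2l2 in osteoclast-like nuclei (190), and for the scarce Srxn1 in endothelial-like (8.20) and pericyte-like nuclei (3.03).

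Minnelide tumor 2, the tumor with the most myocyte-like nuclei, was high over all retained nuclei for Nfe2l2 (136 CPM), Slc7a11 (132), Txnrd1 (151) and Srxn1 (6.99). Within classes it was high for Nfe2l2 in myocyte-like nuclei (167), for Slc7a11 in endothelial-like (22.6) and tumor-like nuclei (24.6), and for Srxn1 in endothelial-like nuclei (8.48). Minnelide tumor 3 was low for Keap1 in fibroblast-like nuclei, at 23.7 CPM against 31.9 to 33.0.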

How the results depend on the processing

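edgeR's count of 0 called genes became 181 over all retained nuclei, 119 in tumor-like, 31 in fibroblast-like, 17 in endothelial-like, 39 in myocyte-like and 18 in osteoclast-like nuclei with DESeq2, and the cause was not tested. It was 1 in fibroblast-like nuclei with doublets kept, and 1 in osteoclast-like nuclei both with no filter on low counts and at resolution 0.5. Leaving out each tumor in turn gave 0 to 1 over all retained nuclei (1 without Minnelide tumor 2). Nfe2l2 in osteoclast-like nuclei reversed at resolution 0.5, to a log2 fold change of 0.047, where that class may hold other nuclei. With DESeq2, Nfe2l2 in tumor-like, Hmox1 in all retained and Txnrd1 in osteoclast-like nuclei passed the threshold. On simulated sums with 4-fold changes, DESeq2 made 34 false calls and edgeR 5 over all nuclei, and 24 and 5 in tumor-like nuclei. DESeq2 recovered 83.3% and 85.1% of the changed genes there, and edgeR 77.8% in each. In macrophage-like sums each made 7 false calls, and DESeq2 recovered 91.5% and edgeR 96.0%. Osteoclast-like sums were not simulated, and the simulation cannot tell whether a single call holds. Under the alternatives run, 112 other values that answer a comparison and 284 single-gene values kept direction and side. Side means an adjusted p at or above 0.05. With 0 genes called in the main run, that was nearly fixed in advance. Except for Gsta4, the size of a fold change was not judged. Hmox1 in macrophage-like nuclei counts as kept at -0.81 without untreated tumor 1, against -1.34. The 112 include counts of 0 that stayed 0 and the class order at resolution 0.5. The class with the highest mean was the same for 9 to 10 of the 10 genes as each tumor was left out, and for 7 at resolution 0.5, where it became myocyte-like for Nfe2l2, osteoclast-like for Hmox1 and tumor-like for Keap1. No macrophage-like class could be tested at resolution 0.5. Depth limits Srxn1 and Nqo1 most, and UMI counts cover counting error only. No paired analysis was possible because the labels number no tumors. A block on the barcode groups that recur in both treatment groups was not fitted.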
